A study of Mus musculus with 24 samples.

Results

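The genes described here are 46 genes of mitosis and the spindle, taken by symbol from the 23479 rows of a table of normalized read counts, and all 46 were found. They were read across 24 RNA libraries of sorted mouse spleen cells, in 8 groups of 3. The cells are myeloid-derived suppressor cells (MDSCs), immature myeloid cells that accumulate with tumours and restrain T cells, either monocytic (M-MDSC) or polymorphonuclear, that is granulocytic (PMN-MDSC). All mice carried B16 melanoma, a transplanted mouse tumour, of more than 25 mm2. The mice labelled WT were of strain C57BL/6 and those labelled IL-6KO of strain B6.129S2-Il6tm1Kopf/J, which carries a disrupted interleukin-6 gene. Mice were untreated (UT) or lymphodepleted (LD) with the chemotherapy drugs cyclophosphamide and fludarabine. Spleens were taken 7 days after treatment and the cells were isolated by flow cytometric sorting with a purity stated as above 99%. Libraries were made from 100 ng of total RNA, with probe-based removal of ribosomal RNA. Names of libraries join the genotype label, treatment, cell type and replicate number, as in KO_UT_M_003. The sources used here give no ages of the mice.

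In mitosis, cyclin-dependent kinase 1 and its B-type cyclins drive entry, condensins fold the chromosomes, and motor proteins build a spindle whose microtubules attach at kinetochores. The spindle checkpoint holds the cell until every kinetochore is attached, the anaphase-promoting complex then destroys securin and cyclin B, and the central spindle and a contractile ring divide the cell. Transcripts of these genes are made mostly in late cell cycle phases and are low in resting cells, so that in the myeloid lineage they are known mainly from marrow progenitors and not from mature neutrophils or monocytes. Their promoters often carry a cell cycle genes homology region, bound by the DREAM complex (which represses in resting cells) or by B-MYB and FOXM1 complexes (which activate later), and CCAAT boxes bound by NF-Y.

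Reads per library ran from 7237462 to 11193088 in the 12 M-MDSC and from 3249647 to 9999731 in the 12 PMN-MDSC libraries. Rn45s, the ribosomal RNA precursor gene, took 2.94 to 19.8% of these reads, and 18.0% in the shallowest library, WT_LD_PMN_001. Il6 was listed at 16.2 to 219.7 normalized reads in the libraries labelled IL-6KO and at 0 to 7.20 in those labelled WT, so genotype differences below are differences between labels. A read count over the whole gene does not tell a disrupted from an intact transcript. The summed level of 7 monocyte genes (such as Ccr2 and Csf1r) was 40103 to 61814 in M-MDSC and 2691 to 6819 in PMN-MDSC libraries. Cd14 went the other way and was called lower in M-MDSCs in all 4 cell type comparisons (−2.04 to −1.497). The 7 neutrophil genes measured (such as Csf3r and Cxcr2) summed to 2758 to 21854 in M-MDSC and 91014 to 166515 in PMN-MDSC libraries. Ly6g was not analysed here. In sorted bulk cells, fewer cells of a type and less RNA per cell cannot be told apart. The labels give 3 mice for each WT group and for untreated IL-6KO mice and no number for lymphodepleted IL-6KO mice. P-values therefore measure the spread between these libraries. For each gene this spread was pooled over all libraries fitted, not taken from the compared groups alone.

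The promoters shown are those of the member with the highest mean level in its role, for the 6 of 9 roles where that member had an entry, because 45 of the 46 genes changed in 1 direction in M-MDSCs. The sequences are RefSeq promoters (GRCm38.p6), each running from 200 bases before the start site to 30 bases after it, 5′ to 3′ on the gene's strand. Capitals mark the homology region, searched as TTTGAA or TTCGAA on both strands, and CCAAT, also on both strands.
Mki67 (chr7:135716350-135716579, minus strand): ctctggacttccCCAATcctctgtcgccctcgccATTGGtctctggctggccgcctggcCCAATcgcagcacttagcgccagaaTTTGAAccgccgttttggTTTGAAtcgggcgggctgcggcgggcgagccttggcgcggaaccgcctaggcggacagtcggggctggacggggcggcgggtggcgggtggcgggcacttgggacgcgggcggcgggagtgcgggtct
Kif11 (chr19:37376182-37376411, plus strand): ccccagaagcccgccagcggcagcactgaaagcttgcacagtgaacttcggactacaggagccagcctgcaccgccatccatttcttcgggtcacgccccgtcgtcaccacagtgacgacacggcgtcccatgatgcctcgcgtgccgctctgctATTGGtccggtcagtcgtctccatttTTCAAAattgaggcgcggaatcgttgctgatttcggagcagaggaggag
Cenpf (chr1:189688057-189688286, minus strand): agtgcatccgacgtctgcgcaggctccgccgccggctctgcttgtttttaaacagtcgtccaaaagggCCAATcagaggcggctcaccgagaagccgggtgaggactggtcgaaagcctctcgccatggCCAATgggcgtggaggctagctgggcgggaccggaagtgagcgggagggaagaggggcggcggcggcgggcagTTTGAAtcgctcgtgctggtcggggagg
Bub1b (chr2:118598011-118598240, plus strand): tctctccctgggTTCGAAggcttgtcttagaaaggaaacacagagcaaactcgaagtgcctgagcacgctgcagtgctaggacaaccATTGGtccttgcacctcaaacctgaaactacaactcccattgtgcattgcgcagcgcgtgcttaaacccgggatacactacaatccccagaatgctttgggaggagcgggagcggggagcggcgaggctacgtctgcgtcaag
Ube2c (chr2:164769729-164769958, plus strand): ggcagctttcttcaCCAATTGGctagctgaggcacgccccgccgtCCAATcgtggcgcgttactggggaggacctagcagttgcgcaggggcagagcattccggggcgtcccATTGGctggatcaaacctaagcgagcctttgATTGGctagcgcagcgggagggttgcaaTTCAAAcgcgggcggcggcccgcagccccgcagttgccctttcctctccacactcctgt
Kif23 (chr9:61946770-61946999, minus strand): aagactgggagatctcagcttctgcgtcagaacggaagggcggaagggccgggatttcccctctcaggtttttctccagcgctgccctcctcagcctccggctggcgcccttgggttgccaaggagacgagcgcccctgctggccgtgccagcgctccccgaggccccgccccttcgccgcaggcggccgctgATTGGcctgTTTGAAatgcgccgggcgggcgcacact
In Kif11 the homology region began 19 bases before the start site and a CCAAT box 45 bases before it. In Cenpf and Kif23 the homology region began 3 bases after the start site. The Ube2c window printed holds 5 CCAAT matches, and 2 of them overlap by a pair of bases. All 6 genes shown hold both sequences. Of other members described by library below, Nuf2, Nusap1 and Pttg1 hold neither in the windows searched, and Mastl holds CCAAT alone.

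Of the 46 members, 36 had a promoter entry, and Tpx2, Kif20a, Incenp, Ska1, Smc4, Aurkb, Foxm1, Ccna2, Spc24 and Fam64a had none. Over 300-base windows, from 250 bases before the start to 50 after it, 30 of the 38 member promoters (78.9%) held TTTGAA or TTCGAA, against 19.2% of all 32841 promoters of the table. CCAAT was in 30 of 38 (78.9%), against 37.4% of all promoters. Both were in 27 of 38 (71.1%), against 7.52%. By gene, 28 of 36 held the homology region and 5 held neither sequence, namely Birc5, Mad2l1, Nuf2, Nusap1 and Pttg1. The median lymphodepletion change in M-MDSCs labelled WT, described next, was 4.38 for the 28 with the homology region and 4.64 for the 8 without. A match is only a description of letters.

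Across the table, 1102 of 11570 genes tested in M-MDSCs were called higher after lymphodepletion in mice labelled WT. A gene was called when limma's p, adjusted by the Benjamini-Hochberg method over all genes tested, was under 0.05. Changes are log2 differences of normalized reads plus 1, given ± standard error, which makes changes of genes with few reads look smaller. Of the 46 members, 45 were called higher (9.52% of all genes) and 0 lower (8.82%). The 3 lymphodepleted libraries lay above all 3 untreated ones for 45 members (16.9% of all genes). The median change of the members was 4.52, against −0.07 over all genes tested. The 45 calls remained in number without each library in turn and with edgeR and DESeq2.

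**Figure D1:**
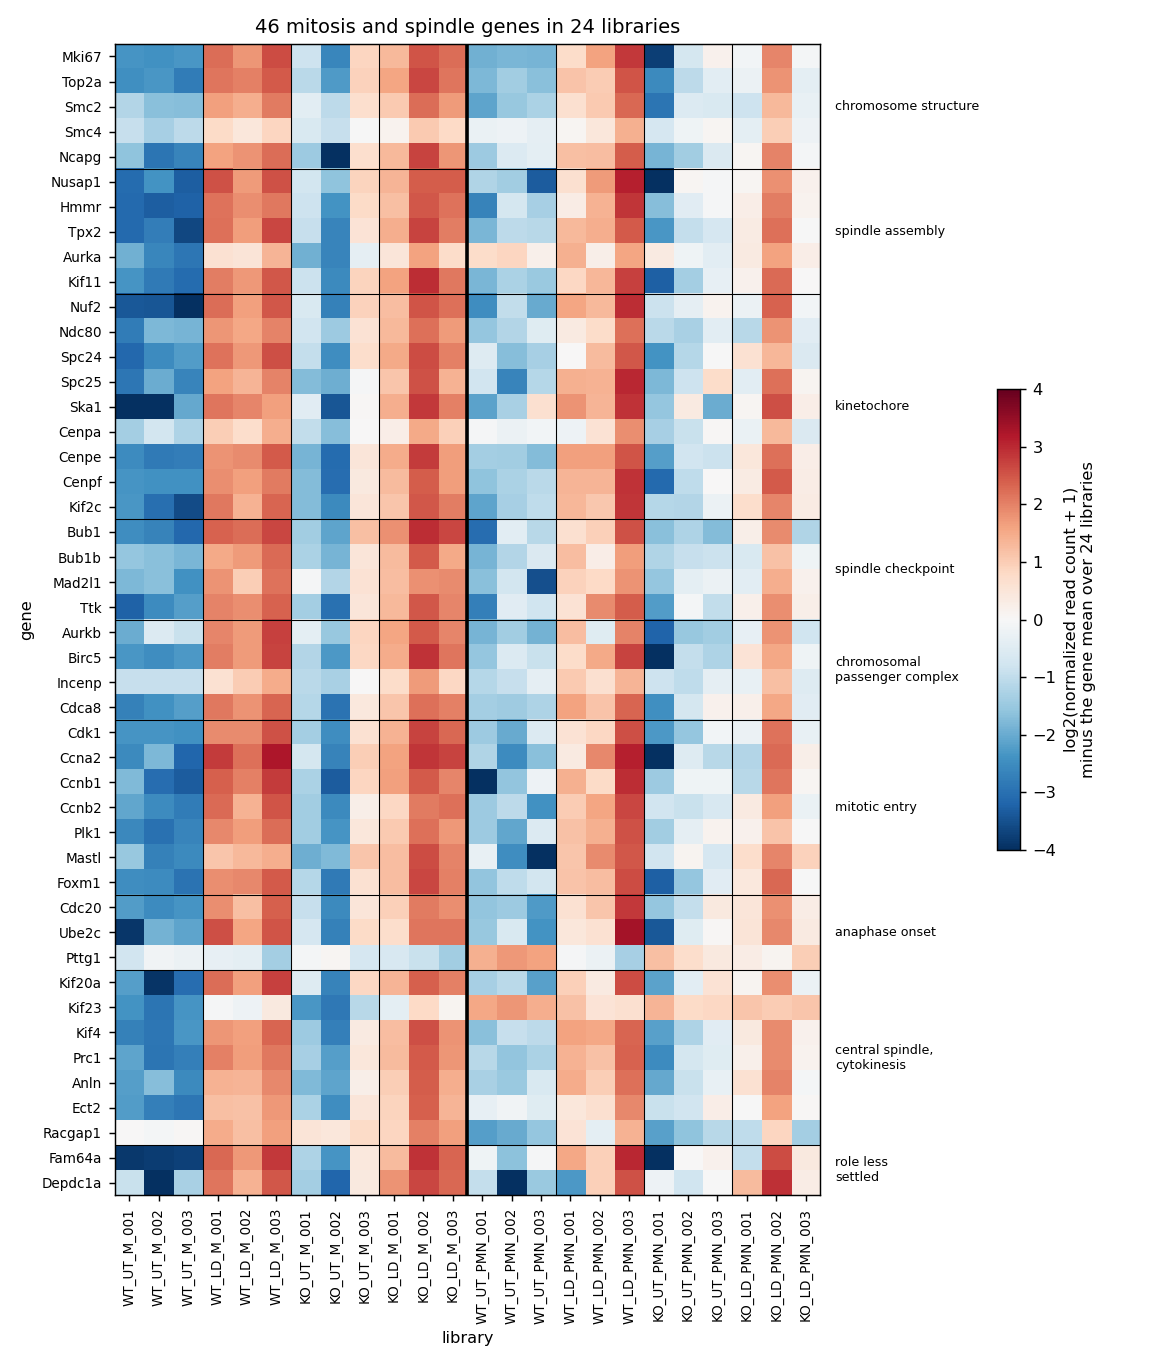
Level of the 46 genes (rows, grouped by role) in 24 libraries (columns, grouped by genotype label, treatment and cell type), as log2(normalized read count + 1) minus the gene's mean over all libraries. In M-MDSCs 45 of the 46 genes were higher in every lymphodepleted than in every untreated library of the WT label and Kif23 was lower in all 6 of those libraries than in any PMN-MDSC library.

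Chromosome structure is described first. Mki67, the Ki-67 protein that coats mitotic chromosomes and the usual marker of proliferating cells, was at 469, 455 and 479 normalized reads in untreated M-MDSCs labelled WT. After lymphodepletion it was at 11444, 8177 and 14590.5. The groups lay far apart, with a change of 4.57 ± 0.59 (adjusted p 0.000201), or 23.7-fold. All 5 members of this role were called higher with a median of 4.27, among them the DNA topoisomerase Top2a (4.74 ± 0.55) and the condensin subunit genes Ncapg (4.27 ± 0.83) and Smc2 (3.24 ± 0.37). Smc4, the other condensin ATPase, changed by 1.79 ± 0.24 from a higher starting level.

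All 7 genes of mitotic entry were called higher (median 4.69). Foxm1, a transcription factor of late cell cycle genes, was at 34.5, 34.1 and 24.5 in untreated and at 728, 755 and 1091 in lymphodepleted libraries (4.73 ± 0.61). The cyclin genes Ccna2 (5.26 ± 0.68), Ccnb1 (5.11 ± 0.75) and Ccnb2 (4.52 ± 0.56), the kinase genes Cdk1 (4.49 ± 0.57) and Plk1 (4.69 ± 0.52), and Mastl (3.55 ± 0.65), whose kinase restrains the phosphatase that opposes CDK1, were called with it.

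All 5 genes of spindle assembly were called higher, with a median of 5.21. Kif11, the kinesin that pushes spindle poles apart, was at 70.7, 49.96 and 42.5 in untreated and at 1506, 1212 and 2055 in lymphodepleted libraries (4.84 ± 0.61). Tpx2, which activates Aurora A on the spindle (5.36 ± 0.58), Hmmr (5.24 ± 0.56) and the microtubule-bundling gene Nusap1 (5.21 ± 0.52) changed by more, and Aurka, the Aurora A kinase itself, by 3.30 ± 0.49.

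All 9 kinetochore genes were called higher (median 4.75). Cenpf, a late kinetochore protein, was at 108, 103 and 103 before and 2014, 1737 and 2383 after lymphodepletion (4.26 ± 0.58). The subunits of the NDC80 complex, which binds the microtubule, changed by 5.86 ± 0.66 (Nuf2), 4.79 ± 0.59 (Spc24), 4.16 ± 0.48 (Spc25) and 3.92 ± 0.43 (Ndc80). Ska1 (5.64 ± 0.83), whose protein holds on to microtubule ends, and the kinesin genes Kif2c (4.91 ± 0.62) and Cenpe (4.75 ± 0.63) were called with them. Cenpa, the centromeric histone, changed least of the 9 (2.16 ± 0.39). Nuf2, Ska1, Bub1, Ttk and Fam64a had under 10 normalized reads in all 3 untreated libraries labelled WT, so they passed the low-value filter only through other groups. Nusap1, Spc24, Kif2c, Ccnb1, Mastl, Ube2c, Kif20a and Depdc1a were under 10 in some of these libraries, which alone did not meet the filter either. Without the filter 45 members were still called.

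The 4 checkpoint genes and the 4 genes of the chromosomal passenger complex were all called higher. Bub1b, the checkpoint protein BubR1, was at 136, 126 and 112 before and 1135, 1311 and 1919 after lymphodepletion (3.503 ± 0.455), and Bub1 changed by 5.18 ± 0.61. Incenp, the scaffold of the passenger complex, was at 605, 604 and 611 before and 1761, 2319 and 3205 after (1.96 ± 0.32). Its partners changed by more, with 4.52 ± 0.58 for Birc5 (survivin), 4.52 ± 0.59 for Cdca8 (borealin) and 3.27 ± 0.51 for Aurkb, the Aurora B kinase. The other 2 checkpoint genes were Mad2l1 (3.62 ± 0.41) and the kinase gene Ttk (4.72 ± 0.64).

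Anaphase onset was the role that split. Ube2c, the ubiquitin-conjugating enzyme of the anaphase-promoting complex, was at 3.14, 15.8 and 13.2 before and 368, 185 and 350.0 after lymphodepletion (4.86 ± 0.74), and its coactivator gene Cdc20 changed by 4.20 ± 0.57. Pttg1, which encodes securin, the inhibitor of separase, was at 58.1, 89.1 and 84.0 before and 78.8, 75.0 and 37.9 after. The groups overlapped and Pttg1 was the 1 member not called (−0.31 ± 0.33, adjusted p 0.537). Pttg1 was singled out after its values were seen.

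All 7 genes of the central spindle and cytokinesis were called higher. Kif23, the kinesin of the centralspindlin complex, was at 225, 154 and 230.2 before and 1134, 1013 and 1547 after lymphodepletion (2.59 ± 0.38). Its centralspindlin partner Racgap1 had the smallest called change (1.46 ± 0.22), and Kif20a (5.27 ± 0.67), Kif4 (4.55 ± 0.56), the bundling protein gene Prc1 (4.52 ± 0.50), the RhoA activator gene Ect2 (3.99 ± 0.56) and the anillin gene Anln (3.71 ± 0.50) had larger ones.

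The largest fitted change was that of Fam64a (Pimreg in RefSeq, 6.09 ± 0.60, adjusted p 8.84e-05), a gene whose role is less settled. It was at 0.785, 0.833 and 0.944 in untreated libraries, 1 read in each, and at 126, 84.3 and 183 in lymphodepleted ones. From 3 and 549 reads the ratio was 152, with an exact 95% counting interval of 51.7 to 739. Depdc1a, the other gene of this kind, changed by 4.20 ± 0.89.

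**Figure D2:**
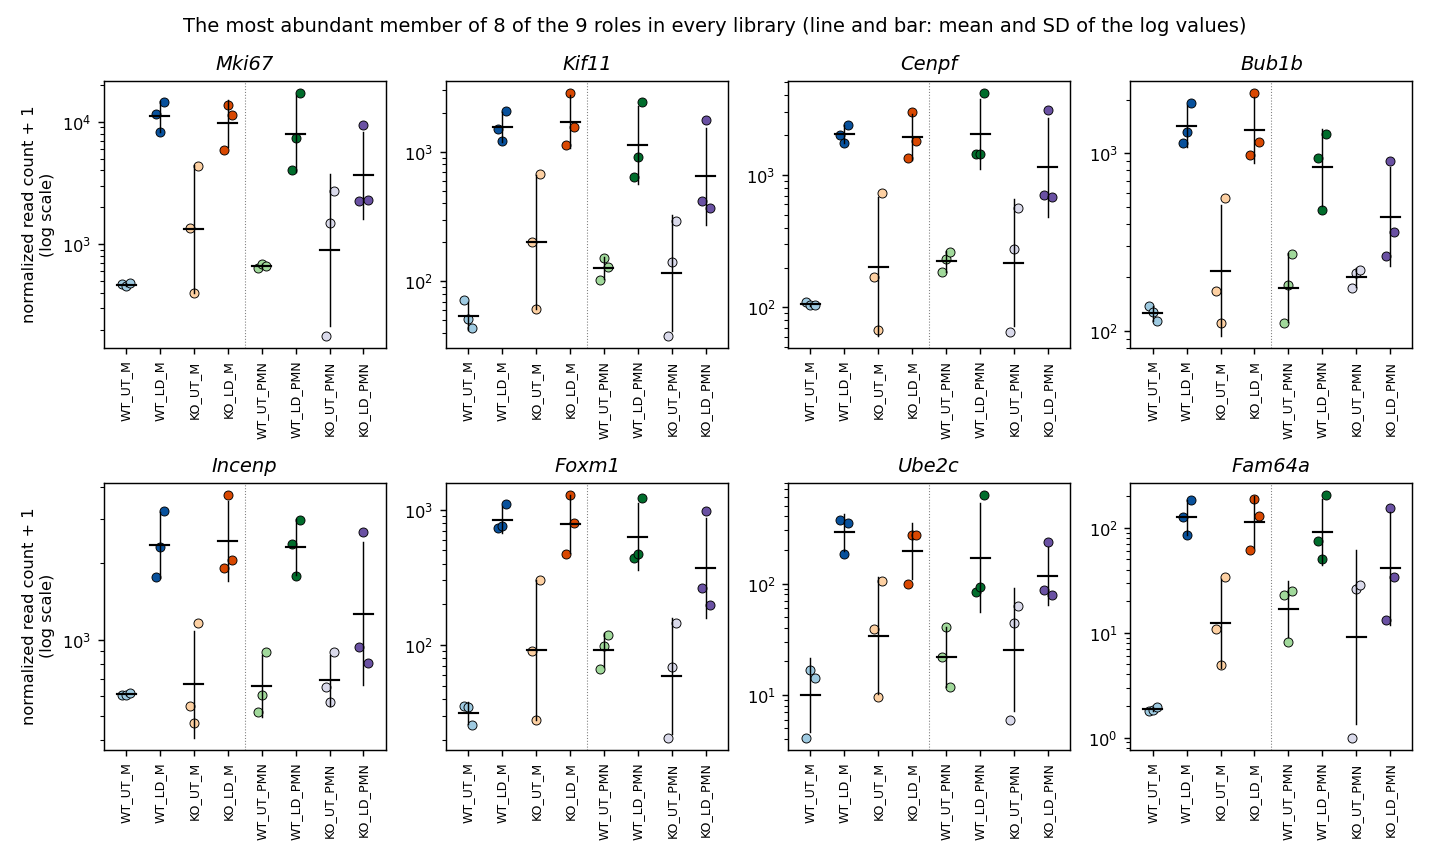
Normalized read count plus 1 (log axis) of 8 genes in each of the 24 libraries (points), by group of 3, with the mean (horizontal line) and SD (vertical bar) of the log values. Mki67 rose from 455 to 479 in untreated to 8177 to 14590.5 in lymphodepleted M-MDSCs labelled WT, and untreated M-MDSCs labelled IL-6KO spread from 396 to 4357.

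In M-MDSCs labelled IL-6KO the same comparison also called 45 members higher (6.11% of all genes) and 0 lower (5.52%), with a median of 2.86 against −0.02 over all genes. Mki67 was at 1359, 396 and 4357 in untreated and at 5911, 13686 and 11275 in lymphodepleted libraries (2.87 ± 0.59, adjusted p 0.00777). The groups did not overlap for 44 members (13.7% of all genes). The largest change was that of Depdc1a (3.63 ± 0.89, adjusted p 0.0175) and the smallest called change again that of Racgap1 (0.91 ± 0.22, adjusted p 0.0171). Pttg1 was not called (−0.75 ± 0.33, adjusted p 0.16). The count of calls ran from 32 (without KO_LD_M_002) to 45 over the libraries left out.

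The smaller median in this label came with a wide spread in its untreated group. The SD of a member's log2 level among the 3 untreated libraries had a median of 1.57 over the 46 genes in M-MDSCs labelled IL-6KO, against 0.36 in those labelled WT. KO_UT_M_003 had the highest level of its group for 45 of the 46 members and KO_UT_M_002 the lowest for 44. Kif11 was at 199 in KO_UT_M_001, 60.8 in KO_UT_M_002 and 670.3 in KO_UT_M_003, and Foxm1 at 88.9, 27.1 and 303 in the same order. The members together took 0.107, 0.0580 and 0.303% of reads in these libraries and 0.0525 to 0.0566% in the 3 untreated ones labelled WT.

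Untreated M-MDSCs labelled IL-6KO were compared with those labelled WT. All 46 members lay above 0 with a median of 1.44 (0.01 over all genes), and 5 were called higher (2.24% of all genes) and 0 lower (1.79%). They were Nuf2 (2.95 ± 0.66, adjusted p 0.0318), Fam64a (2.73 ± 0.60, adjusted p 0.0308), Nusap1 (2.45 ± 0.52, adjusted p 0.025), Hmmr (2.39 ± 0.56, adjusted p 0.0354) and Mad2l1 (1.76 ± 0.41, adjusted p 0.0354). Nuf2 and Fam64a had under 10 normalized reads in every untreated M-MDSC library labelled WT and passed the filter only through other groups. For Nusap1 the untreated libraries labelled WT alone did not meet the filter either. Without the filter only Nuf2 and Nusap1 were called, and a pseudocount of 5 did not call Fam64a. Nuf2 was at 64.7, 14.5 and 192 in the libraries labelled IL-6KO and at 8.64, 8.33 and 3.77 in those labelled WT, with no overlap. Nusap1 was at 44.4, 23.8 and 139 against 7.85, 13.3 and 6.61. The libraries labelled IL-6KO all lay above those labelled WT for 14 members (16.1% of all genes), and Mki67 was not called (1.51 ± 0.59, adjusted p 0.162).

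The calls changed with single libraries. No member was called without KO_UT_M_001, KO_UT_M_003 or any 1 of the 3 libraries labelled WT, and 32 were called without KO_UT_M_002. The median of 1.44 was 0.65 without KO_UT_M_003, 2.16 without KO_UT_M_002 and between 1.39 and 1.496 without each of the other 4. edgeR called 10 members and DESeq2 22, against 4.31% and 9.26% of all genes.

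After lymphodepletion 0 members were called between the labels in M-MDSCs by limma, edgeR or DESeq2, against 0.156% of all genes called higher and 0.0519% lower. None had an unadjusted p under 0.05 (9.34% of all genes), the median was −0.07 (0.01 over all genes), and changes ran from −0.56 to 0.66. For Mki67 the 95% interval of the difference was −1.47 to 1.08, so with 3 libraries in each group differences between these limits remained compatible with the values. The difference between the labels in their response to lymphodepletion was tested as an interaction, in which 0 members were called by limma (0 and 0.00864% of all genes higher and lower). It lay below 0 for all 46 members (median −1.56, against −0.0017 over all genes), 16 had an unadjusted p under 0.05 (12.2% of all genes), and the lowest was Nuf2 (−3.09 ± 0.94, adjusted p 0.328). edgeR called 0 and DESeq2 1, Fam64a (0.0173% and 0.614% of all genes). The median interaction was −0.79 without KO_UT_M_003.

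**Figure D3:**
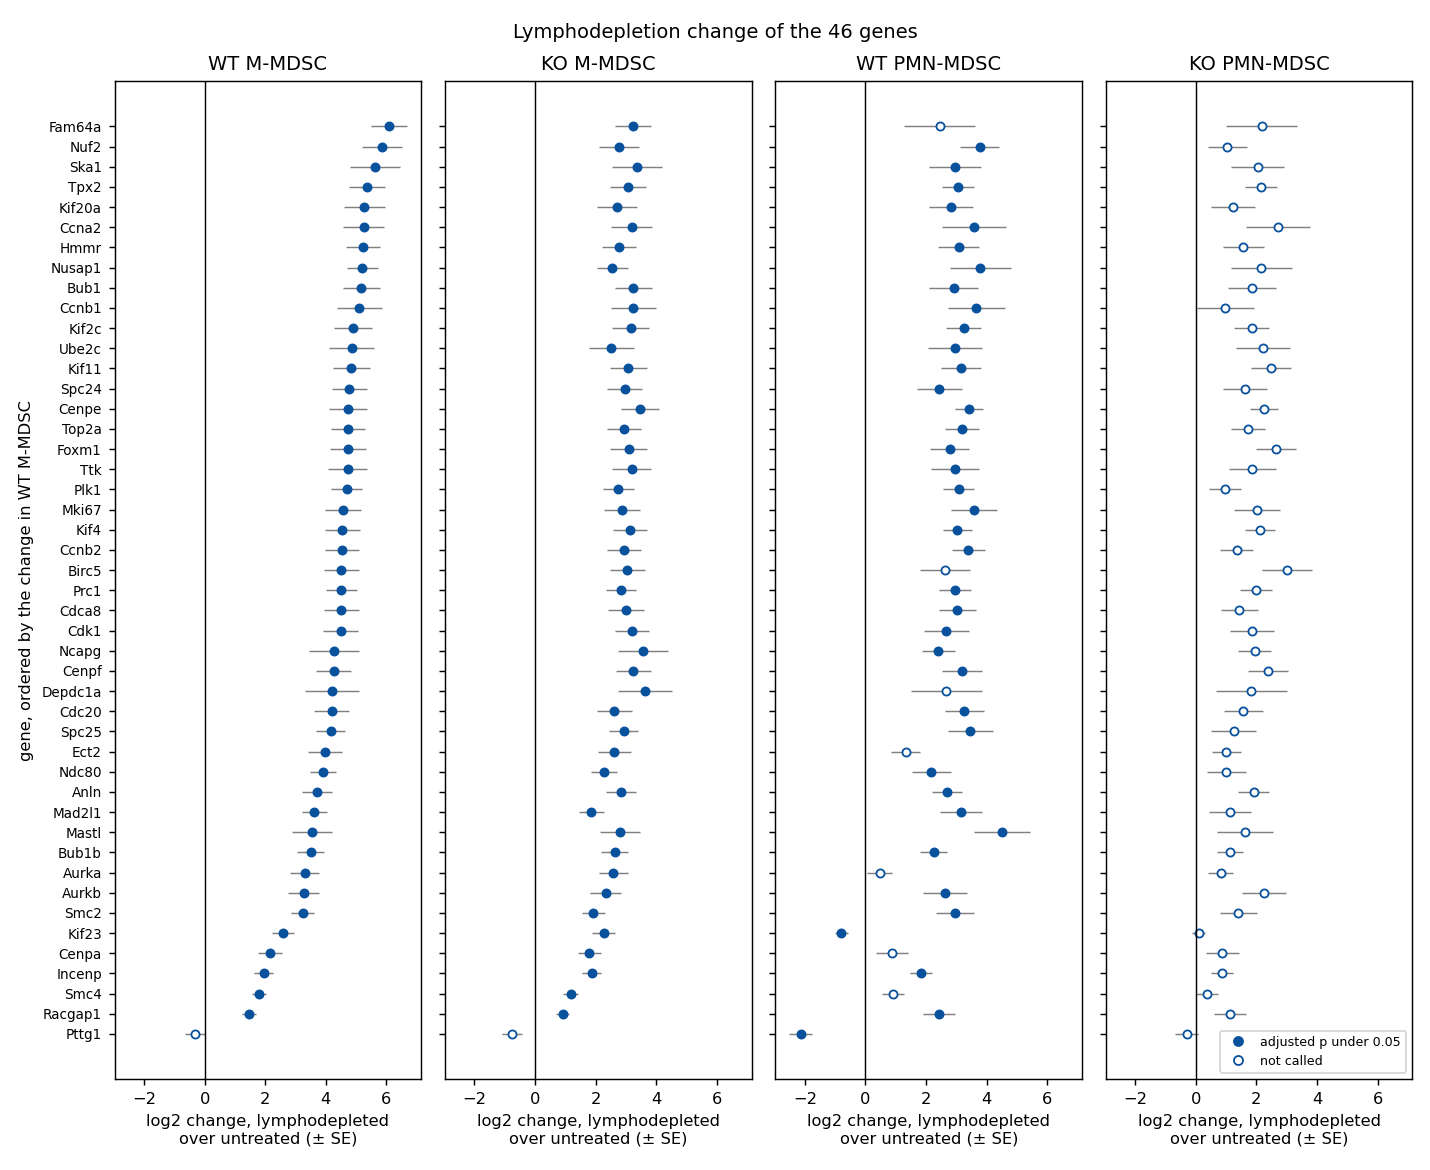
Log2 change of each member on lymphodepletion ± SE in 4 panels (M-MDSC and PMN-MDSC, labelled WT and IL-6KO), with genes ordered by the change in M-MDSCs labelled WT and filled points called at an adjusted p under 0.05. Filled points number 45, 45, 39 and 0 from left to right, and Kif23 and Pttg1 lie below 0 in PMN-MDSCs labelled WT.

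In PMN-MDSCs labelled WT 37 members rose on lymphodepletion (4.14% of all genes) and 2 fell (6.73%). The median was 2.96, against −0.20 over all 12971 genes tested. Mki67 was at 642, 686 and 666 in untreated and at 4042, 7353 and 17068 in lymphodepleted libraries (3.58 ± 0.77, adjusted p 0.0142). The groups did not overlap for 41 members in the higher direction (12% of all genes) and 2 in the lower (20.9%). The largest change was that of Mastl (4.52 ± 0.92, adjusted p 0.0117), at 30.6, 6.00 and 0 before and 83.5, 146 and 217 after. The smallest called rise was that of Incenp (1.83 ± 0.37, adjusted p 0.0113), at 517, 604 and 892 before and 2385, 1784 and 2965 after.

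By role, all 7 genes of mitotic entry and all 4 of the checkpoint were called higher in these cells, and 8 of 9 kinetochore genes, 4 of 5 spindle assembly genes, 4 of 5 chromosome structure genes and 3 of 4 passenger complex genes. Cenpe, a kinetochore motor, changed by 3.41 ± 0.46 (adjusted p 0.00488), and Foxm1 by 2.78 ± 0.65, from 66.1, 97.2 and 118 to 439.8, 470.2 and 1219. Kif11 was at 102, 149.99 and 128 before and 642, 909.8 and 2438 after (3.16 ± 0.67). In Kif11 and Foxm1, as in 44 of the 46 members, WT_LD_PMN_003 was the highest library of its group. The members not called were Birc5 (2.64 ± 0.83, adjusted p 0.0514), Depdc1a (2.67 ± 1.17), Fam64a (2.45 ± 1.17), Ect2 (1.33 ± 0.48), Smc4 (0.91 ± 0.35), Cenpa (0.87 ± 0.53) and Aurka (0.47 ± 0.41).

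The 2 members that fell were Pttg1 (securin, chr11:43420244-43427463, minus strand) and Kif23 (centralspindlin, chr9:61917277-61946810, minus strand), positions in GRCm38.p6. Pttg1 was at 270.4, 334 and 303 in untreated and at 96.3, 84.4 and 38.6 in lymphodepleted PMN-MDSCs labelled WT, a change of −2.13 ± 0.38 (adjusted p 0.00781) called in every alternative run for it. Kif23 was at 3424, 4016 and 3234 before and 2636, 1734 and 1824 after (−0.80 ± 0.21, adjusted p 0.0302). The Kif23 call was lost with edgeR (adjusted p 0.0503) and without each library except WT_LD_PMN_001 (adjusted p 0.0642 to 0.119).

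The count of 39 calls in these cells fell to 22 without WT_LD_PMN_003, to 13 without WT_UT_PMN_001 and to 16 without WT_UT_PMN_002, and the median stayed between 2.45 and 3.21. With edgeR's scaling the median change of all genes tested moved by 0.20 in this comparison, and the counts were 37 higher and 1 lower (7.86% of all genes called in either direction).

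In PMN-MDSCs labelled IL-6KO 0 members were called by limma (0% of all genes higher and 0.224% lower), although 45 lay above 0 with a median of 1.67 (−0.07 over all genes). An unadjusted p under 0.05 was found for 30 members (10.2% of all genes), and the smallest adjusted p was 0.0654, for Cenpe (2.26 ± 0.46). edgeR called 0 and DESeq2 9, against 0.185% and 1.9% of all genes. Mki67 was at 178, 1488 and 2699.6 in untreated and at 2262, 9344 and 2294 in lymphodepleted libraries, and the groups overlapped. Cenpf was at 64.3, 277 and 566 before and 706, 3084 and 679 after, and did not overlap. In all, 22 members did not overlap in the higher direction (6.03% of all genes). KO_LD_PMN_002 was the highest of its group for 44 members and KO_UT_PMN_001 the lowest of its group for 36. Without KO_LD_PMN_002 the median was 1.08, and without KO_UT_PMN_001, whose depth was 4874429 reads, it was 1.09. Pttg1 was at 227, 161 and 131 before and 123, 106 and 197 after (−0.30 ± 0.38).

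Between the labels 0 members were called in untreated PMN-MDSCs (0.00771% of all genes higher and 0% lower) or in lymphodepleted ones (0.00771% higher and 0.00771% lower), with limma, edgeR or DESeq2. An unadjusted p under 0.05 was found for 4 members in each, against 3.61% of all genes in untreated and 8.3% in lymphodepleted cells. The medians were 0.12 in untreated cells (−0.05 over all genes) and −0.89 in lymphodepleted cells (0.04), where 43 members lay below 0. The untreated median was −0.20 without KO_UT_PMN_003, 0.70 without KO_UT_PMN_001 and 0.82 without the shallowest library of each group. The lymphodepleted median ran from −1.50 to −0.48 with 1 library left out. The interaction of label and lymphodepletion was called for 0 members by the same 3 tools (0% of all genes in either direction, 6 members under an unadjusted p of 0.05 against 8.54% of all genes), with a median of −0.98 (0.10 over all genes). Lymphodepletion was therefore called in the WT label and not in the IL-6KO label, and the difference between these responses did not pass its own test.

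The cell types differed in which members they carried without treatment. Levels per kilobase of exon were divided by the union of all annotated exons, which can exceed the length of the transcript present. By this measure Kif23 had the highest mean of the 46 in untreated PMN-MDSCs labelled WT, with 450.3 ± 51.6 normalized reads per kilobase (SD, n = 3). It was ahead of Smc4 (230.0 ± 12.4), Incenp (155 ± 45.4) and Pttg1 (151 ± 15.8). Kif23 lay beyond the spread of the others, while Incenp and Pttg1 did not differ beyond theirs. In untreated M-MDSCs labelled WT, Incenp (140.2 ± 0.948) and Smc4 (130.2 ± 17.3) led within their spread, with 25.7 ± 5.397 for Kif23 and 38.5 ± 8.31 for Pttg1. After lymphodepletion Mki67 had the highest mean in both, with 1133 ± 319 in M-MDSCs and 943 ± 673 in PMN-MDSCs labelled WT. In PMN-MDSCs this lead lay within the spread, with Incenp at 549 ± 136. Pttg1 stood at 32.0 ± 11.3 in M-MDSCs and 36.5 ± 15.2 in PMN-MDSCs.

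In untreated cells labelled WT, 11 members were called lower in M-MDSCs than in PMN-MDSCs (28.3% of all genes) and 1 higher (22.2%), with a median of −1.12 (−0.08 over all genes). Kif23 differed by −4.14 ± 0.32 (adjusted p 4.54e-10), Aurka by −3.08 ± 0.49 (adjusted p 1.87e-05) and Pttg1 by −1.98 ± 0.37 (adjusted p 0.000143). The smallest called difference was that of Smc4 (−0.83 ± 0.33, adjusted p 0.0406). Aurka was at 34.5, 20.8 and 16.98 in M-MDSCs and 220.2, 245 and 155 in PMN-MDSCs. Racgap1, the partner of Kif23, went the other way (1.91 ± 0.44, adjusted p 0.000988), at 367, 339 and 369 in M-MDSCs and 78.3, 88.8 and 122 in PMN-MDSCs. The shares of members called were below those of all genes in both directions, and their count was 7 without WT_UT_M_003 and 6 without WT_UT_PMN_003.

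**Figure D4:**
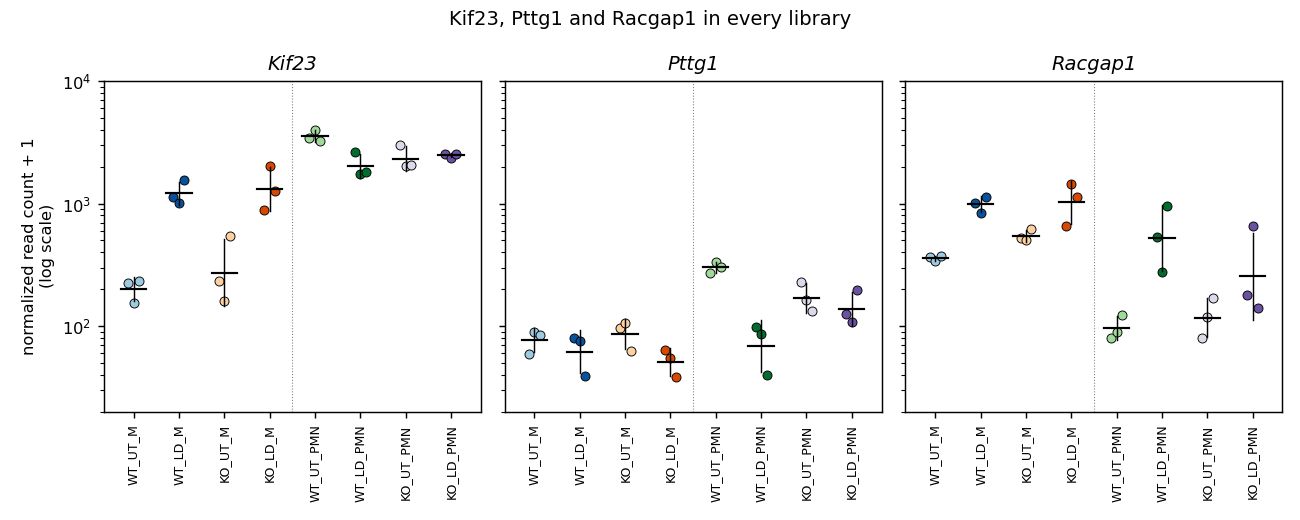
Normalized read count plus 1 (log axis) of Kif23, Pttg1 and Racgap1 in each library (points), by group of 3, with the mean (horizontal line) and SD (vertical bar) of the log values and a dotted line between M-MDSCs and PMN-MDSCs. Kif23 lay between 1734 and 4016 in all 12 PMN-MDSC libraries and between 154 and 542 in the 6 untreated M-MDSC libraries, while Racgap1 was higher in M-MDSCs without treatment.

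In untreated cells labelled IL-6KO Kif23, Pttg1, Racgap1 and Aurka were again called between the cell types, with −3.09 ± 0.32 for Kif23 (adjusted p 6.28e-08), −0.98 ± 0.37 for Pttg1 (adjusted p 0.0374) and 2.21 ± 0.44 for Racgap1 (adjusted p 0.000275). Aurka (−1.57 ± 0.49) and Aurkb (1.70 ± 0.68, adjusted p 0.0456) made 3 lower (23.6% of all genes) and 2 higher (20.3%). The count was 3 without KO_UT_M_001 and 2 without KO_UT_PMN_001.

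After lymphodepletion 0 members were called between the cell types in the WT label by limma, edgeR or DESeq2 (19.4% of all genes higher and 19.9% lower), 2 had an unadjusted p under 0.05 (47.5% of all genes) and the median was 0.41 (0.07 over all genes). Kif23 was still lower in every M-MDSC library (−0.74 ± 0.32, adjusted p 0.0713). In the IL-6KO label 8 members were called higher in M-MDSCs (23.8% of all genes) and 2 lower (23.6%), with a median of 1.19 (0.05 over all genes). Bub1 had the largest difference (2.18 ± 0.77, adjusted p 0.0237) and Incenp the smallest called higher (0.95 ± 0.38, adjusted p 0.0404). Pttg1 (−1.44 ± 0.37, adjusted p 0.00306) and Kif23 (−0.92 ± 0.32, adjusted p 0.0226) were the 2 called lower. The count of 10 was 31 without KO_LD_PMN_002, 3 without KO_LD_M_002, 4 without KO_LD_M_003, 2 without KO_LD_PMN_001 and 3 without KO_LD_PMN_003.

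Whether the response to lymphodepletion differed between the cell types was tested directly. In the WT label 1 member was called, Kif23 (3.40 ± 0.46, adjusted p 0.000382), against 0.587% of all genes higher and 0.201% lower. It rose by 2.59 in M-MDSCs and changed by −0.80 in PMN-MDSCs, and its interaction was called in every alternative run for it. Aurka (2.83 ± 0.70, adjusted p 0.0546) and Pttg1 (1.82 ± 0.53, adjusted p 0.107) were not called by limma and were called with DESeq2 (2.68% of all genes), and the median of the members was 1.59 (0.16 over all genes). In the IL-6KO label 0 members were called by limma or edgeR (0.0372% of all genes higher and 0.0594% lower) and 4 had an unadjusted p under 0.05 (7.66% of all genes), with a median of 1.19 (0.06 over all genes). Kif23 had the smallest adjusted p (2.17 ± 0.46, adjusted p 0.0618) and was called with DESeq2 (0.736% of all genes). It was also called without KO_LD_M_001 or without KO_UT_M_003.

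Markers of granulocyte-monocyte progenitors (Mpo, Elane, Prtn3, Ctsg, Ms4a3, Kit, Cd34 and Myb) also changed with lymphodepletion. In M-MDSCs labelled WT 8 of the 8 were called higher on lymphodepletion (median 5.36), and their summed level was 144 to 216 in untreated and 5098 to 16252 in lymphodepleted libraries. In M-MDSCs labelled IL-6KO 2 of 8 were called, with sums of 371 to 8712 and 6159 to 14828. Within the untreated libraries of that label the sum was 1565 in KO_UT_M_001, 371 in KO_UT_M_002 and 8712 in KO_UT_M_003, and the members' summed level was 6693, 3713 and 18333. Between the labels in untreated M-MDSCs 4 of 8 were called higher. In PMN-MDSCs the sums were lower, at 231 to 317 and 1432 to 2780.1 in the WT label (5 of 8 called) and 284 to 547 and 437 to 1237 in the IL-6KO label (0 of 8 called). On lymphodepletion in PMN-MDSCs labelled IL-6KO the median change was 0.63 for the markers and 1.67 for the members. Between the cell types in untreated cells labelled WT the medians had opposite signs, with 1.73 for the markers and −1.12 for the members. Kit and Myb were above 0 in all 24 libraries, and the part of progenitors in the members' changes was not tested.

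**Figure D5:**
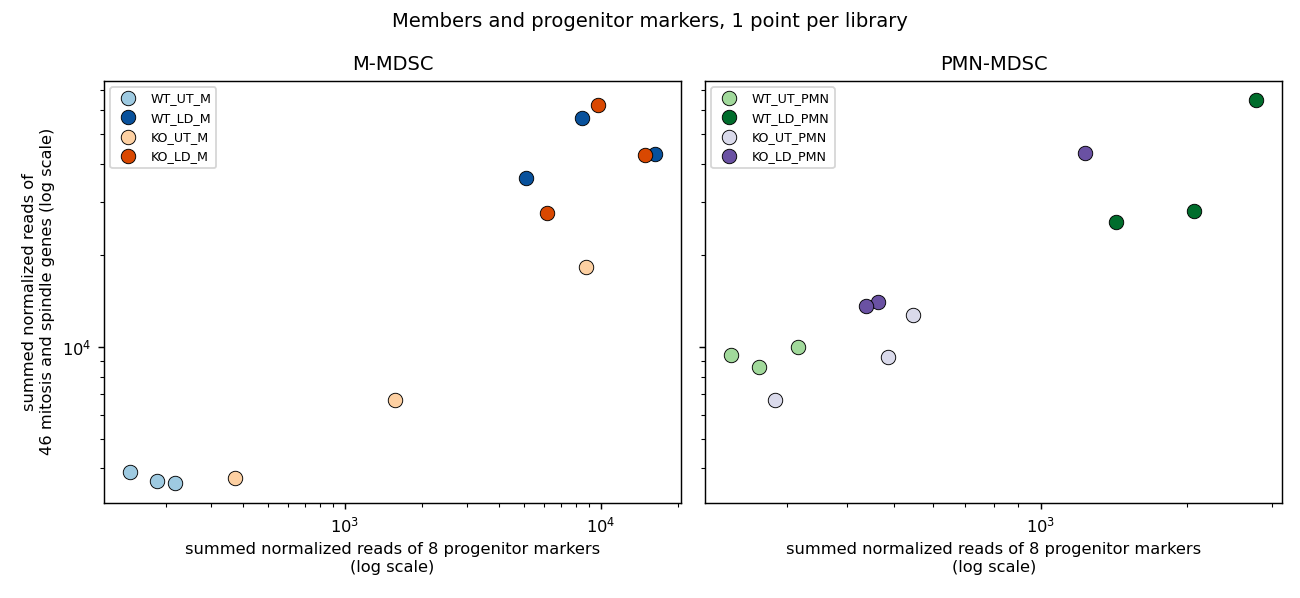
Summed normalized reads of the 46 members against those of 8 progenitor markers, both on log axes, 1 point per library, for M-MDSCs (left) and PMN-MDSCs (right). In M-MDSCs the 3 untreated libraries labelled WT lie at 144 to 216 marker reads and the 6 lymphodepleted ones at 5098 to 16252, with KO_UT_M_003 (8712) between the groups in member level.

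Neutrophil markers moved in M-MDSCs as well. In the WT label 3 of 7 were called higher on lymphodepletion (median 1.67), namely S100a9 (5.13 ± 0.64), S100a8 (5.02 ± 0.60) and Cxcr2 (2.78 ± 0.64), and 6 of 7 did not overlap. Their sum was 3241 to 3518 in untreated and 5979 to 21854 in lymphodepleted libraries, against at least 91014 in PMN-MDSCs. In the IL-6KO label 2 of 7 were called higher (median 1.56), S100a8 and S100a9. The cell type interaction in the WT label, in which Kif23 was the member called, also called Cxcr2 (3.85 ± 0.68), S100a8 (4.004 ± 0.787) and S100a9 (4.27 ± 0.84). The part of neutrophil RNA in the members' changes, Kif23 included, was not tested.

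Erythroid markers also differed, with a summed level over 10 genes of 65.1 to 98.9 in untreated and 472 to 579 in lymphodepleted M-MDSCs labelled WT. Tfrc, the transferrin receptor gene, which dividing cells of other kinds also express, made up a mean of 72.0 and 469.6 of these sums. Hba-a1, Hba-a2, Hbb-bs and Hbb-bt were listed at 0 in all 24 libraries. Such listed values do not show that globin RNA was absent, because the filters of the counting are not stated. In PMN-MDSCs labelled WT the sum was 170.4 to 218 before and 337 to 1429 after, with means of 150.2 and 585.9 for Tfrc. Their part was not tested.

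Lymphocyte markers moved too. In M-MDSCs labelled WT, 5 of 6 B cell and 6 of 6 NK cell markers were called lower on lymphodepletion, and 1 of 6 T cell markers. With the IL-6KO label they were 6, 6 and 4 of 6 in the same order. In PMN-MDSCs labelled WT, 6 of 6 B cell (median −3.78), 2 of 6 T cell and 1 of 6 NK cell markers were called lower, and in those labelled IL-6KO 2 of 6 B cell markers. Between the labels in untreated M-MDSCs, where 5 members were called, 6 of 6 NK cell and 4 of 6 T cell markers were called higher in the IL-6KO label, with a summed NK cell level of 4169 to 5768 against 1078 to 1251. Their part in the members' difference was not tested.

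Other genes of the same pathway gave the surroundings of the members. Of 75 further mitosis genes, 71 were called higher in lymphodepleted M-MDSCs labelled WT (0 lower, median 3.61, largest change 5.51). Among them were Ckap2 (5.04 ± 0.49), Melk (4.81 ± 0.51) and Ncapd2, a condensin subunit gene (4.10 ± 0.45). In the IL-6KO label 67 were called higher, in PMN-MDSCs labelled WT 38 and in those labelled IL-6KO 0 by limma (29 with an unadjusted p under 0.05), and 0 were lower in each of these comparisons. Zw10, Cenpo, Zwint and Mad1l1 were the 4 not called in M-MDSCs labelled WT. Between the labels in untreated M-MDSCs 3 of 75 were called higher, Pmf1 (1.33 ± 0.28), Kntc1 (2.32 ± 0.53) and Ckap2 (2.05 ± 0.49).

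A list of 14 other genes held those of the anaphase-promoting complex and of proteins that act on it, as the members Cdc20 and Ube2c do. Their median change was 0.32 in lymphodepleted M-MDSCs labelled WT. Ube2s (1.31 ± 0.19), Cdc23 (0.90 ± 0.17), Anapc5 (0.74 ± 0.14) and Fzr1 (0.91 ± 0.20) were called higher, and 0 were lower. In PMN-MDSCs limma called 0 of 14 in either label, with an unadjusted p under 0.05 for 4 in the WT and 1 in the IL-6KO label. Cdc23 overlaps the member Kif20a on the genome, and 10 of the 46 members overlap another protein-coding gene, among them Foxm1 and Ube2c. The sources used here do not state the strand setting of the counting, so reads of overlapping genes may not be separated.

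Of 30 tested genes of cell cycle transcription and entry, 16 were called higher and 3 lower in lymphodepleted M-MDSCs labelled WT. Those higher included Cdkn2c (2.95 ± 0.36) and the repressor genes E2f8 (3.24 ± 0.47) and E2f7 (4.46 ± 0.69), and the 3 lower were Ccnd2, a G1 cyclin (−1.01 ± 0.23), Cdkn1b, an inhibitor of cyclin-dependent kinases (−0.57 ± 0.15), and the pocket protein gene Rbl2 (−0.32 ± 0.10). In the IL-6KO label 9 were higher and 1 lower, Ccnd2 (−2.22 ± 0.23). DNA replication genes were called higher for 29 of 30 in M-MDSCs labelled WT (median 2.75), 22 of 30 in the IL-6KO label and 11 of 30 in PMN-MDSCs labelled WT. In PMN-MDSCs labelled IL-6KO limma called 0 of 30, and 3 had an unadjusted p under 0.05.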

How the data were processed

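RNA of 24 libraries of sorted spleen MDSCs was sequenced by the authors. Each deposited value is a signal per gene, namely the count of reads over the library's single size factor. Dividing by the value of 1 read gave whole reads for 100% of values (tolerance 0.001). The build mm10 and the tools DESeq2, HTSeq 0.6.1 and STAR 2.5.3a are named, per the submitters' processing notes. For annotation, filters and strand setting, nothing is stated in the sources used here.

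Libraries were grouped by their labels, and 16 contrasts were tested with limma 3.58.1 (R 4.3.3) on log2(normalized reads + 1), for genes with at least 10 normalized reads in at least 3 fitted libraries. Contrasts within a cell type used its 12 libraries and the others all 24. P-values were adjusted over all genes tested. edgeR 4.0.16 and DESeq2 1.42.0 on recovered reads, a pseudocount of 5, no filter, a replicate block, each library left out and the shallowest PMN-MDSC library of each group left out were alternatives. On lymphodepletion in the WT label edgeR called 1946 of 11570 genes in M-MDSCs and 1020 of 12971 in PMN-MDSCs. The calculations were tested on simulated data. All 46 members passed the filter. The member of each role with the highest mean over 24 libraries was shown by library. Pttg1, Racgap1, Nuf2, Nusap1, Aurka and Mastl were added by library after their values were seen. Other members were named by the largest and smallest called change, and the remaining ones are given by role. Counting intervals cover counting error only. Members, lists and tests were chosen with earlier results of these data known.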

Additional observations from a re-analysis of the deposited data

Results flagged for a closer look

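The response to lymphodepletion differed between the cell types for Kif23 in the WT label, with an interaction of 3.40 ± 0.46 (limma, adjusted p 0.000382), meaning a larger log2 change in M-MDSCs. The same test in the genes of the neighbouring lists gave 3.66 ± 0.72 (adjusted p 0.0160) for Mcm10, a DNA replication gene, in the WT label. In the IL-6KO label it gave 2.87 ± 0.52 (adjusted p 0.0326) for Myc, a transcription factor gene of cell growth.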

How the results depend on the processing

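The counts of members called were within 1.5 times the main count under each alternative, except as follows. For the labels in untreated M-MDSCs (5 called), no filter gave 2, edgeR 10 and DESeq2 22. DESeq2 gave 1 for the label by lymphodepletion interaction in M-MDSCs, 9 for lymphodepletion in PMN-MDSCs labelled IL-6KO, and 3 and 1 for the cell type interactions in the WT and IL-6KO labels. A pseudocount of 5 gave 1 for lymphodepletion in PMN-MDSCs labelled IL-6KO. edgeR gave 3 and 5 between the cell types in untreated and lymphodepleted cells labelled IL-6KO. Leaving out 1 library gave 32 to 45 calls for lymphodepletion in M-MDSCs labelled IL-6KO, 0 to 32 between labels in untreated M-MDSCs and 13 to 42 for lymphodepletion in PMN-MDSCs labelled WT. Between the cell types it gave 6 to 14 and 0 to 1 (the 1 without WT_LD_PMN_003) in untreated and lymphodepleted cells labelled WT, and 2 to 5 and 2 to 31 in those labelled IL-6KO. For the cell type interactions it gave 1 to 3 in the WT label, where 3 came without WT_LD_PMN_001 and 2 without WT_LD_PMN_003, and 0 to 1 in the IL-6KO label. The causes were not tested. edgeR's scaling moved the median of all genes by −0.13 for the label by lymphodepletion interaction in PMN-MDSCs and by −0.16 for the cell type interaction in the WT label. A group with a library left out holds 2 libraries, and its spread is pooled with the other groups.

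Within a cell type, deviations of same-numbered libraries had median correlations of −0.02 in M-MDSCs and −0.01 in PMN-MDSCs. Between the cell types of 1 group, correlations ran from −0.08 to 0.22 for same-numbered and from −0.23 to 0.11 for differently numbered libraries. Whether same-numbered M-MDSCs and PMN-MDSCs came from 1 mouse is not settled by these values. The main cell type tests treated them as independent. With the replicate block, calls for lymphodepletion were 45 and 45 in M-MDSCs and 40 and 1 in PMN-MDSCs (WT and IL-6KO labels), the 1 being Cenpe (adjusted p 0.0485). Between the labels the replicate block left 5 calls in untreated M-MDSCs, and between the cell types it gave 14, 0, 5 and 12.

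Among members followed singly, directions that reversed did so for values that had not passed the test. Over all 46 members, edgeR and DESeq2 kept the direction of 30 and 33 between the cell types in untreated cells labelled IL-6KO. Between the labels they kept that of 40 and 40 in untreated PMN-MDSCs and 41 and 39 in lymphodepleted M-MDSCs. In every other comparison they kept that of at least 44. Leaving out 1 library gave −0.50 to 0.0208 for Pttg1 on lymphodepletion in M-MDSCs labelled WT, and −0.0113 to 0.28 for Kif23 in PMN-MDSCs labelled IL-6KO. Between the labels it gave −0.0529 to 0.82 for Kif23 and −0.0263 to 0.39 for Pttg1 in untreated M-MDSCs, −0.19 to 0.40 for Kif23 and −0.44 to 0.16 for Mki67 in lymphodepleted M-MDSCs, −0.37 to 1.59 for Mki67 in untreated PMN-MDSCs and −0.25 to 2.17 for Depdc1a in lymphodepleted ones. For interactions it gave −0.70 to 0.17 for Kif23 with the label in M-MDSCs, and with cell type −2.17 to 0.32 for Mastl in the WT label (0.0593 with DESeq2), −0.0311 to 2.003 for Mki67 and −0.63 to 0.47 for Racgap1 in the IL-6KO label. Of the members, 5 had under 10 normalized reads in all 3 untreated M-MDSC libraries labelled WT, and others in some of them. Changes of these members there rest on few reads.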
